A study of Mus musculus with 26 samples.

Results

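Among 23 libraries of ribosome-bound RNA purified from the mouse dorsal striatum, 8 had 45% or more of their uniquely placed reads outside annotated genes, and they are described here against the 10 libraries with 33% or less. The share was the number of reads in no annotated gene, divided by the sum of the gene counts, those reads and the reads ambiguous between genes. The remaining 5 purified libraries lay between the thresholds. The series also holds 3 inputs, total RNA of the same tissue before purification, which makes 26 libraries in all. The share is a measured value, so the 8 and the 10 are sets of libraries that the data define and not groups of the study. Gene levels did not enter the share as single genes, but they come from the same libraries, and the sum of the gene counts is part of its denominator.

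The animals were adult mice of the Drd2-TRAP line CP101, which carry the EGFP-tagged ribosomal protein L10a under Drd2 regulatory sequence, on a mixed FVB/N and Swiss Webster background crossed for at least 9 generations to C57BL/6. All libraries, controls included, came from mice with this transgene that self-administered either saline or cocaine intravenously with long access. The purified libraries were 3 of saline, 4 of cocaine with nonescalating intake, 2 of cocaine with escalating intake, 5 of saline followed by withdrawal and 9 of nonescalating cocaine followed by withdrawal. The inputs were 1 each of saline, nonescalating cocaine and saline followed by withdrawal. Library numbers in the titles fall into set A (15 purified, with every library made without withdrawal) and set B (8 purified, all after withdrawal). The labels do not say whether a library came from 1 animal or from a pool, nor whether replicates were separate animals, so the spread behind each p-value may be technical.

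Translating ribosome affinity purification pulls down tagged ribosomes with an antibody against the tag, so that RNA bound to them is enriched for the cell type that expresses the transgene. In the dorsal striatum Drd2 marks the indirect-pathway projection neurons, which are GABAergic and also express enkephalin and an adenosine receptor, and Drd2 is expressed by cholinergic interneurons as well. The tissue also holds cell nuclei, with unspliced and nuclear-retained RNA, and vessel walls, made of endothelial cells, pericytes, smooth muscle cells and fibroblasts.

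The share of reads outside genes ran from 21.2% to 70.7% over the purified libraries. The 10 low libraries lay between 21.2% and 32.8% with a median of 30.1%, and the 8 high libraries between 45.05% and 70.7% with a median of 52.4%. The inputs had 27.3%, 30.8% and 31.6%, within the range of the low libraries. Just inside the upper threshold lay a nonescalating library at 45.05% and just outside it a library of nonescalating cocaine after withdrawal at 43.1%; at the lower threshold the neighbours were the escalating libraries at 32.8% and 34.1%. The high libraries were 1 of 3 saline, 1 of 4 nonescalating, 0 of 2 escalating, 3 of 5 saline withdrawal and 3 of 9 nonescalating withdrawal libraries, so high and low libraries occurred under every treatment but the escalating one, which had 1 low and 1 between. Set A held 5 high and 7 low libraries and set B 3 of each. Gene counts in all ran from 3279457 to 14712619 in the high and from 4519178 to 19122303 in the low libraries.

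**Figure D1:**
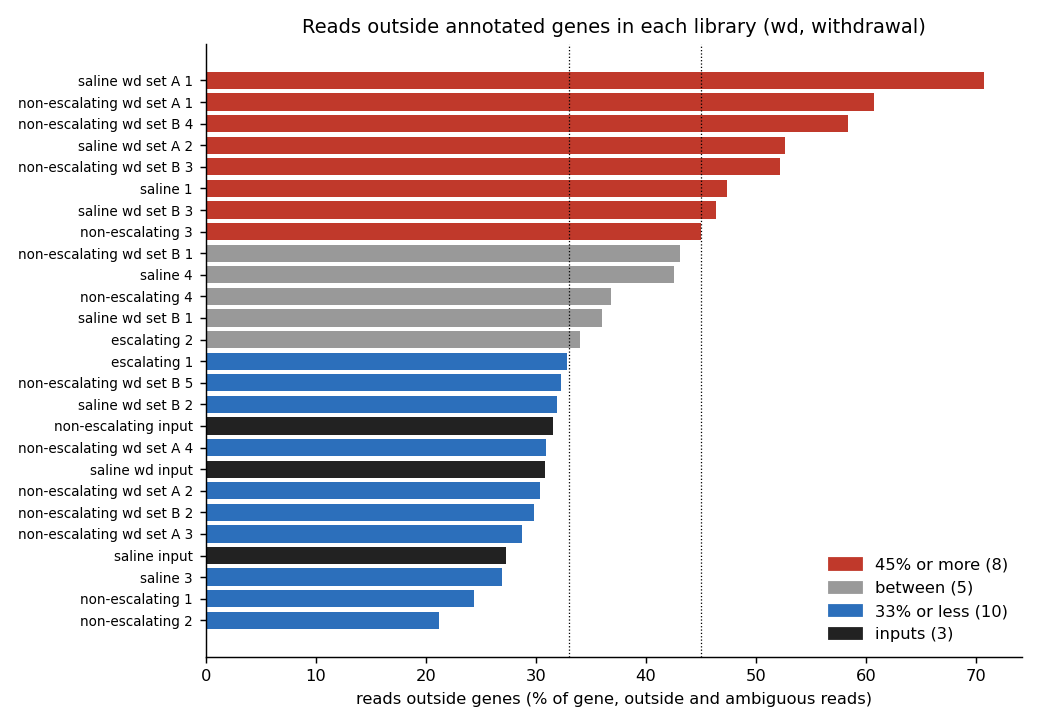
Bars give the percentage of reads outside annotated genes in each of the 26 libraries, with dotted lines at 33% and 45%. The 8 high libraries (red) reach from 45.05% to 70.7%, and the 3 inputs (black) sit among the 10 low libraries (blue).

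The 3 RNAs that mark the contrast moved in different directions. Malat1, a nuclear-retained noncoding RNA (GRCm38 chromosome 19, 5795690 to 5802672), had between 4974 and 11599 CPM (a gene's counts relative to those of its library, scaled by trimmed mean of M-values) in the low libraries with a median of 8099, and between 14955 and 53257 in the high libraries with a median of 23655. No high library overlapped a low one, and the inputs, at 20097 to 21574, lay within the high range. Its log2 fold change, high against low, was 1.84 (SE 0.23; adjusted p = 2.0e-06 by edgeR's quasi-likelihood test). Flt1, a receptor for vascular endothelial growth factor on endothelial cells (chromosome 5, 147561604 to 147726011), ran from 27.1 to 463 CPM in the low and from 525 to 2300 CPM in the high libraries, again without overlap, a log2 fold change of 2.76 (SE 0.39). Flt1 in the inputs was 11.5, 25.9 and 104 CPM, below every high library. Drd2 itself (chromosome 9, 49340627 to 49408177) went the other way, from 2454 to 8803 CPM in the low and from 806 to 2982 CPM in the high libraries, with a log2 fold change of -1.32 (SE 0.24). In 6 of the 8 high libraries Drd2 was below every low library, and in all 8 it was above the inputs, at 415 to 553 CPM.

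**Figure D2:**
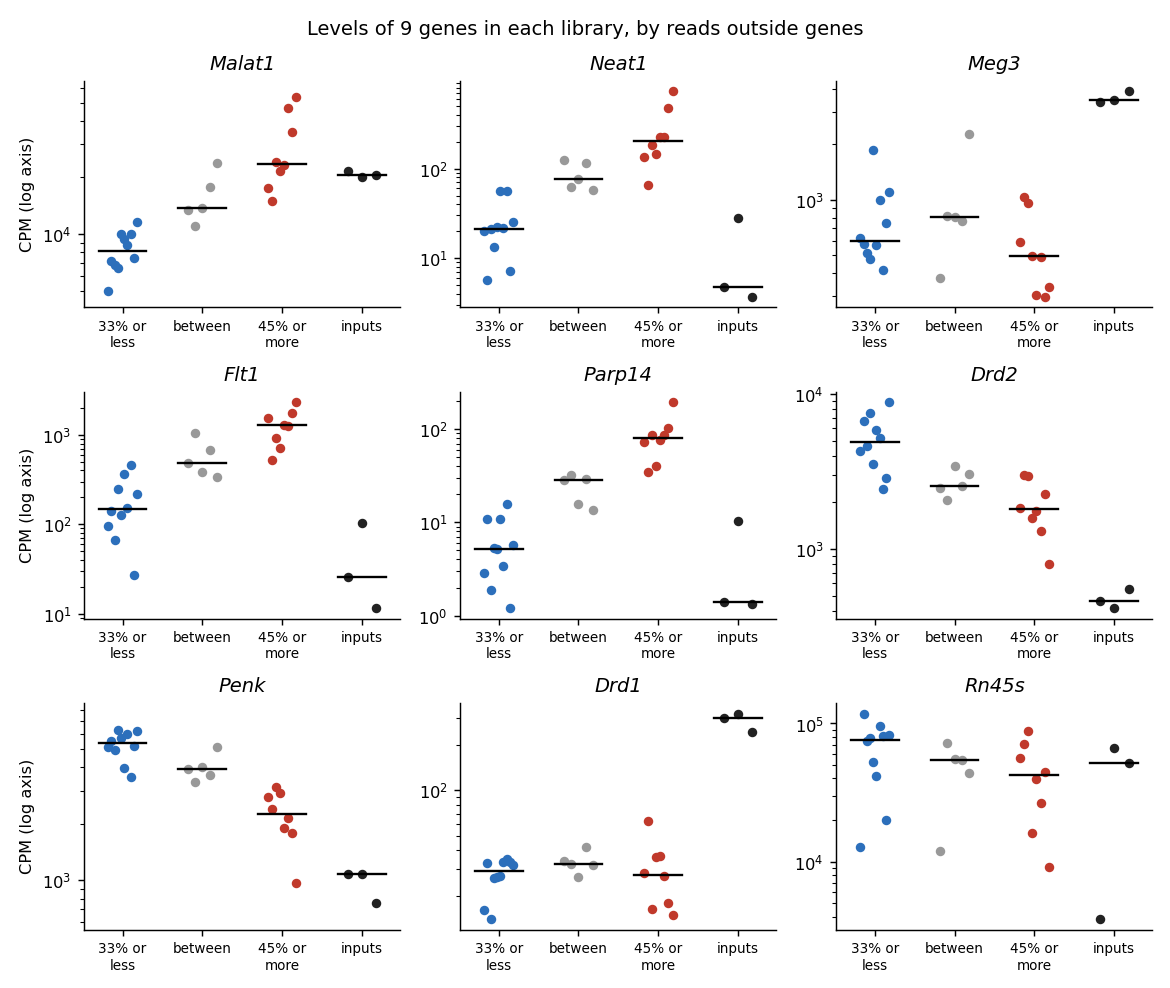
Points are the CPM (log axis) of 9 genes in each library, grouped by share of reads outside genes, and lines are medians. Malat1, Neat1, Flt1 and Parp14 are higher in all 8 high than in all 10 low libraries, Penk is lower in all 8 and Drd2 in 6 of them, and Drd1, Meg3 and Rn45s overlap.

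Across all genes the high and low libraries differed widely. Of 15719 genes tested with library set as a term, 7803 (49.6%) were called at an adjusted p under 0.05, 4007 higher (25.5%) and 3796 lower (24.1%) in the high libraries, with a median log2 fold change over all genes of -0.03. For 691 genes (4.4%) every high library was above every low one, and for 235 (1.5%) every high library was below. The libraries between the thresholds entered the fit only for the estimate of the spread. Their mean lay between the means of the high and low libraries for 94.6% of the genes called higher and 93.0% of those called lower, against 43.0% of genes not called. The balance of calls depends on the scaling: 51.4% of calls were higher here, against 73.9% with total gene counts, 62.4% with relative log expression factors in edgeR and 63.2% with DESeq2, and these scalings put the median of all genes at 0.31, 0.15 and 0.35. Fold changes below are on the first scale.

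RNA of the vessel wall was higher in the high libraries. All 25 of 25 endothelial markers tested were called higher, with log2 fold changes from 2.32 to 3.15 and a median of 2.78, beside 25.5% of all genes called higher. Their summed level ran from 4401 to 17235 CPM in the high and from 223 to 2938 CPM in the low libraries, without overlap, and was 121, 209 and 1794 CPM in the inputs. The purified libraries with a high share held more endothelial RNA per unit of counts than the unpurified tissue. In these bulk samples more cells of a type and more RNA per cell cannot be told apart.

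Esam, an endothelial adhesion molecule, ran from 2.64 to 21.995 CPM in the low and from 35.0 to 166 CPM in the high libraries (log2 fold change 3.02, SE 0.32). Erg, an endothelial transcription factor, rose by 3.06 and Sox18, another, by 2.77 on the same scale. Abcb1a, the P-glycoprotein drug efflux pump of the blood-brain barrier, had a low-library median of 29.7 CPM and a high-library median of 278 CPM. For 12 of the 25 markers, against 4.4% of all genes, every high library was above every low one.

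All 13 mural cell markers tested were also called higher, beside 25.5% of all genes, with a median of 2.65. Pdgfrb, the pericyte receptor for platelet-derived growth factor B, ran from 1.44 to 73.8 CPM in the low and from 92.7 to 408 CPM in the high libraries. Myh11, the smooth muscle myosin heavy chain, had a log2 fold change of 3.38 (SE 0.51), with at most 73.4 CPM in a low library and at least 80.5 CPM in a high one. In the inputs Myh11 was between 0 and 3.49 CPM. Vtn and Abcc9, both pericyte genes, rose by 2.65 and 2.88.

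The 10 vascular and meningeal fibroblast markers were all called higher, with a median of 2.69. So were 11 of 13 basement membrane and vessel matrix genes, with a median of 2.29, beside 25.5% of all genes. Col1a1, a chain of type I collagen, ran from 0 to 2.73 CPM in the low and from 4.72 to 22.5 CPM in the high libraries. Lama5, a laminin chain of endothelial basement membranes, rose from a median of 19.4 CPM to 176 CPM. Sparcl1, which astrocytes also express, rose by 1.43. The matrix genes not called were Lamb1 (-0.27) and Nid2 (1.06), named after their values were seen.

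**Figure D3:**
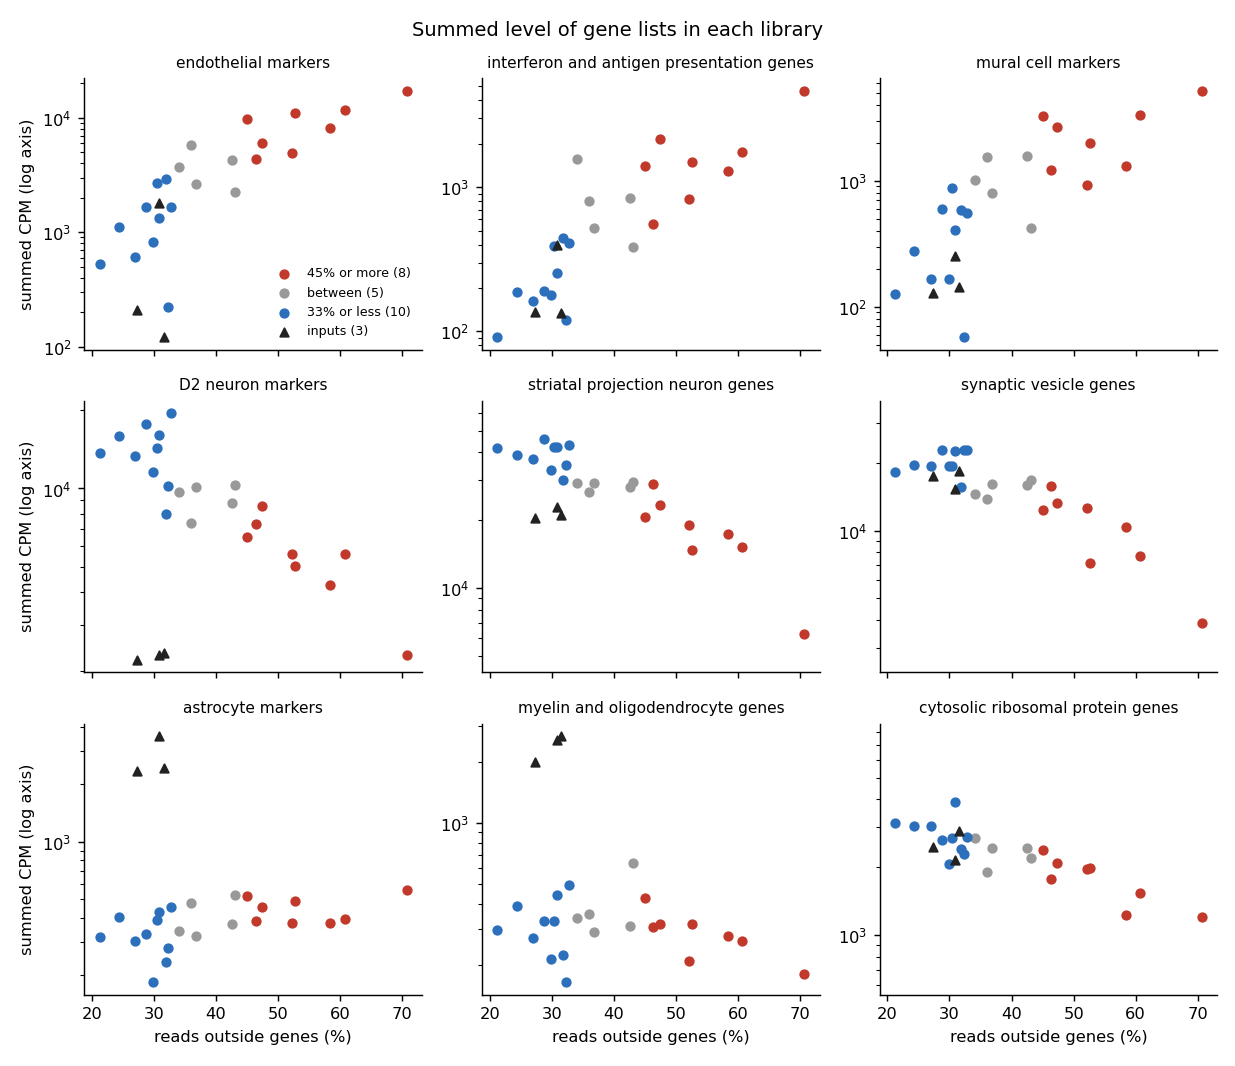
Each panel plots the summed CPM of a gene list (log axis) against the percentage of reads outside genes in each library. Endothelial, interferon and mural sums climb with the share, the neuronal and ribosomal protein sums decline, and the astrocyte and myelin sums of purified libraries stay below all 3 inputs.

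Interferon-response and antigen presentation genes formed the list with the largest median. Of 35 tested, 34 were called higher and none lower, beside 25.5% of all genes called higher, with a median log2 fold change of 3.22. For 12 every high library was above every low one, as for 4.4% of all genes. The member not called was Isg15 (0.62), named after its value was seen. The summed level was 557 to 4665 CPM in the high and 91.1 to 442 CPM in the low libraries, and 133, 135 and 399 CPM in the inputs. The highest sum, 4665 CPM, was in a saline withdrawal library of set A, the one with 70.7% of reads outside genes. The next, 2146 CPM, was in a saline library. The remaining high libraries came from the saline withdrawal, nonescalating and nonescalating withdrawal groups, and a difference by treatment was not tested for this list.

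Parp14, an ADP-ribosyltransferase induced by interferon, ran from 1.20 to 15.6 CPM in the low and from 34.7 to 193 CPM in the high libraries, with no overlap and a log2 fold change of 3.76 (SE 0.40). Ddx58, which encodes the RNA sensor RIG-I, ran from 0.753 to 12.3 CPM and from 21.9 to 106 CPM. H2-D1, a class I major histocompatibility heavy chain, rose from a median of 13.8 CPM to 120 CPM, with 1 high library inside the low range. Gbp3, an interferon-induced guanylate-binding GTPase, rose by 3.63 (SE 0.49). Among the 15 largest rises of genes with at least 5 CPM on average and a symbol that is not a clone or model name, Igtp (4.60), Nlrc5 (4.41), Oas2 (4.30) and Rsad2 (4.26) belong to the same response, as an immunity-related GTPase, a transactivator of class I genes, an oligoadenylate synthetase and viperin. Igtp, Nlrc5, Oas2 and Rsad2 were each higher in all 8 high than in all 10 low libraries. Their values reached 312, 250, 103 and 53.6 CPM in the saline withdrawal library with 70.7%. In the low libraries they were at most 6.52, 6.94, 4.11 and 4.93 CPM. Genes so near the floor there can reach 5 CPM on average through the high libraries, so the sizes of these rises may lean upward. Parp10 (4.27), a member of the interferon list among the same 15, overlapped. Parp10 had 1.42 CPM in the high saline withdrawal library of set B, against up to 4.12 CPM in the low libraries. The histocompatibility, guanylate-binding and immunity-related GTPase genes have near copies in the genome, so reads may be split or lost between copies.

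The promoters of this list were searched for a sequence of the interferon response. The list holds genes known for that response, so the result describes the list and does not bear on high against low libraries. The core of the interferon-stimulated response element, GAAANNGAAA searched on both strands with overlapping matches allowed, occurred in 250 bases before to 50 after the start (RefSeq, GRCm38.p6) for 12 of the 28 list members with a promoter in the table (42.9%). The share over all 27025 genes with a promoter was 3.99%, and it was 3.55% over the genes tested and 0 of 17 for endothelial markers. A match describes letters in the window and not a bound site. Isg15, the list member not called, had 3 matches. The promoters of 3 named members with a match are shown because these genes separated the high from the low libraries without overlap, in lower case with each match in capitals, 5′ to 3′ on the gene's strand:
Rsad2 (chr12:26456403-26456702, minus strand): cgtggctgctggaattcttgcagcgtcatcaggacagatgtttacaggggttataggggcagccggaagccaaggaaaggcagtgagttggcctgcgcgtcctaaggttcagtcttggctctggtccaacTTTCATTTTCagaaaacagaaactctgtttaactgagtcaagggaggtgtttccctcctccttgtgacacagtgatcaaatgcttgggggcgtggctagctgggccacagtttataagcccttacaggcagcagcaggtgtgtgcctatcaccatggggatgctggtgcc
Gbp3 (chr3:142559794-142560093, plus strand): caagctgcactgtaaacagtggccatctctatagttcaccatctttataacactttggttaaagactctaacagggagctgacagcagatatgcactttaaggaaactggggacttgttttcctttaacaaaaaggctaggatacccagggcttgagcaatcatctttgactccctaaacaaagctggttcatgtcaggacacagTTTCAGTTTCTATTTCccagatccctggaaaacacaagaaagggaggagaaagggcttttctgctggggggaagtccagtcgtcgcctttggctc
Ddx58 (chr4:40239776-40240075, minus strand): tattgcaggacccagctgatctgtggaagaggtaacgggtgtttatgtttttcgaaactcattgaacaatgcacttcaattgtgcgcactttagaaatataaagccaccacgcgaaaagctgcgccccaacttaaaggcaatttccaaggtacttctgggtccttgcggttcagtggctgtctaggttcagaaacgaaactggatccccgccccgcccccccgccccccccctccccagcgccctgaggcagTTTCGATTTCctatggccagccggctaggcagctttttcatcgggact
In Rsad2 the match began 120 bases before the start, in Gbp3 a pair of overlapping matches began 45 bases before it, and in Ddx58 the match began 2 bases after it. All 3 were matches on the opposite strand, TTTCNNTTTC as printed.

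Microglia, macrophage and blood cell genes were low in level. Beside 25.5% of all genes called higher, 5 of 10 microglia markers tested were, and none was called lower (median 2.16). Of 5 border macrophage and myeloid markers tested 3 were higher. Their sums stayed small, at 16.2 to 60.1 CPM for microglia in the high libraries against 1.20 to 22.7 CPM in the low ones and 41.5 to 133 CPM in the inputs. Csf1r, the receptor that microglia need for survival, ran from 5.12 to 23.1 CPM in the high libraries, and Lyz2, the lysozyme of macrophages, from 2.43 to 13.2 CPM. P2ry12, Tmem119, C1qa, Aif1, Trem2, Gpr34 and Selplg, also microglia markers, were too low to be tested. Fcrls and Tyrobp, both called higher, were at most 1.07 and 0.358 CPM in any low library. Members so near the floor there can pass the count filter through other libraries, so these list counts and medians may lean upward. Of 4 genes of blood cells tested 3 rose, with Hbb-bs, a beta-globin, between 0.853 and 17.8 CPM in the high libraries. Among 5 lymphocyte markers Ptprc, the pan-leukocyte antigen CD45, was higher (2.14) and Cd4 lower (-1.27), and Cd4 ran from 237 to 697 CPM in the low libraries, above its 104 to 177 CPM in the inputs.

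Of 594 long noncoding RNA genes tested, 200 (33.7%) were called higher and 57 (9.6%) lower, with a median log2 fold change of 0.81. Over all genes 25.5% were called higher and 24.1% lower. Long noncoding genes near the floor in the low libraries can pass the count filter through other libraries, so their share called higher may lean upward. The nuclear and long noncoding RNAs on the list did not move as a block. Of 19 on the list tested, 4 were called higher (Malat1, Neat1, Kcnq1ot1 and Airn), 3 lower (Peg13, Dlx6os1 and Pvt1, named after their values were seen; the edgeR adjusted p of Pvt1 was 0.24 without nonescalating library 2) and 12 not called, and the list's median was -0.27, or 0.07 with total gene counts. Neat1, the scaffold of nuclear paraspeckles (chromosome 19, 5824708 to 5845478), ran from 5.75 to 56.7 CPM in the low and from 66.0 to 729 CPM in the high libraries, a log2 fold change of 3.40 (SE 0.42). Neat1 in the inputs was at most 28.0 CPM, while Malat1 in the inputs was above every low library. Kcnq1ot1 and Airn, long antisense transcripts of imprinted loci, rose by 2.17 and 3.52. Whether the counting used strand is not stated, so reads of these transcripts and of the genes they overlap cannot be told apart. Meg3, a neuronal imprinted noncoding RNA with nuclear retention, ran from 415 to 1867 CPM in the low and from 297 to 1036 CPM in the high libraries with a log2 fold change of -0.52 (adjusted p = 0.14), while the inputs held 3407 to 3868 CPM.

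On a list of splicing factors and Ogt, whose transcripts are known to retain introns, 11 of 16 were called higher and none lower (median 0.64). Over all genes tested, 25.5% were called higher. Clk1, a kinase of SR proteins, rose from a median of 21.5 CPM to 105 CPM without overlap (log2 fold change 2.23), and the inputs had 40.8 to 65.8 CPM. Ddx17, an RNA helicase, ran from 197 to 346 CPM in the low and from 391 to 1209 CPM in the high libraries, and Luc7l2, a spliceosome factor, rose by 1.38. Srsf2, Srsf5, Ddx5 and Hnrnpa2b1 of the same list were not called, at -0.37 to 0.37. The tables count reads per gene, so spliced and unspliced transcripts cannot be told apart in them.

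Neuronal RNA was lower in the high libraries. Of 12 indirect-pathway markers 9 were called lower, beside 24.1% of all genes, and none higher, with a median of -1.20. Upb1 (-0.50), Adk (0.31) and Cartpt (0.16) were not called and are named after their values were seen. The summed level was 2304 to 8532 CPM in the high and 8004 to 19391 CPM in the low libraries, with a small overlap. In the inputs it was 2207 to 2338 CPM, so the lowest purified library, at 2304 CPM, stood within the range of unpurified tissue. That library is again the saline withdrawal library with 70.7%.

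Penk, the enkephalin precursor (chromosome 4, 4133531 to 4138819), ran from 3555 to 6330 CPM in the low and from 965 to 3129 CPM in the high libraries, without overlap (log2 fold change -1.23, SE 0.18). Adora2a, the adenosine receptor of these neurons, had the same fold change of -1.23 (SE 0.26), with medians of 1784 CPM and 656 CPM. Gpr6 and Gpr52, receptors enriched in indirect-pathway neurons, fell by 1.46 and 1.25, and Ttc12, a neighbour of Drd2 on the chromosome, by 1.15. Rpl10a, the gene of the tagged protein, whose counts may include the transgene, ran from 149 to 448 CPM in the low, from 62.6 to 168 CPM in the high libraries and from 36.9 to 72.2 CPM in the inputs.

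Genes shared by both kinds of projection neuron followed, with 25 of 25 called lower, beside 24.1% of all genes, and a median of -1.10. Ptpn5, the striatal-enriched phosphatase STEP, had the largest change of those named, with medians of 1333 CPM in the low and 452 CPM in the high libraries. Pde10a, the striatal phosphodiesterase, ran from 3854 to 7796 CPM and from 818 to 4070 CPM. Foxp1 and Rarb, transcription factors of projection neurons, fell by 0.94 and 1.23. The summed D1 markers of the direct pathway were below the inputs in every purified library, at 96.4 to 174 CPM in the low, 233 to 455 CPM in the high libraries and 623 to 746 CPM in the inputs. The gap between high and low libraries came from Ebf1: without it the sums overlapped, at 78.3 to 128 CPM in the low and 60.6 to 148 CPM in the high libraries, against 582 to 712 CPM in the inputs. Drd1 was 13.9 to 35.0 CPM in the low, 14.97 to 63.1 CPM in the high libraries and 245 to 323 CPM in the inputs, with a log2 fold change of 0.04 (SE 0.24).

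Of the 10 D1 markers, 1 was called higher, Ebf1 (3.16), which ran from 93.3 to 383 CPM in the high libraries against 5.03 to 57.4 CPM in the low ones and was above all 3 inputs (17.3, 34.5 and 94.99 CPM) in 7 of the 8 high libraries. Ebf1 is also a transcription factor of pericytes. For the marker counts here, the shares over all genes were 25.5% called higher and 24.1% called lower. Of 9 cholinergic interneuron markers, 1 was called, Zic4 (2.91), while Chat, the acetylcholine-synthesizing enzyme, was not (-0.43, 0.503 to 17.95 CPM in the high and 1.93 to 21.3 CPM in the low libraries). GABAergic interneuron markers had 1 call each way in 6 (Nos1 at 0.70, with an edgeR adjusted p of 0.0787 without nonescalating library 3, and Cck at -1.57), and cortical glutamatergic markers none in 6 (1 higher with total gene counts and with DESeq2).

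Synaptic genes fell with the projection neuron genes. Of 23 synaptic vesicle genes 21 were called lower (median -1.01), and of 19 postsynaptic genes 18 were (median -1.16), beside 24.1% of all genes. Snap25, a SNARE protein of vesicle fusion, ran from 4832 to 8449 CPM in the low and from 1130 to 4392 CPM in the high libraries, without overlap. Syt1, the calcium sensor of release, fell by 1.03, Rab3a, a vesicle GTPase, by 1.27, Grin1, the obligatory NMDA receptor subunit, by 1.39 and Camk2b, a calcium-dependent kinase, by 1.19. The genes not called were Stx1a (-0.03), Rims1 (-0.55) and Shank3 (-0.29), named after their values were seen.

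Genes of cell maintenance were lower by less. Nuclear-encoded oxidative phosphorylation genes had 40 of 42 called lower (median -0.94) and proteasome genes 22 of 31 (median -0.67). Cytosolic ribosomal protein genes had 31 of 46 (median -0.60), and none was higher on these lists. The share called lower over all genes was 24.1%. These counts depend on the scaling: with total gene counts they were 24, 10 and 4 lower, with 2 ribosomal protein genes higher, and the medians were -0.62, -0.32 and -0.27 where the median of all genes was 0.31. Atp5b, the beta subunit of the ATP synthase, ran from 1344 to 2464 CPM in the low and from 479 to 1366 CPM in the high libraries. Ndufc1, of complex I, and Psmd8, of the proteasome cap, fell by 1.48 and 1.17, and Rpl3, of the large ribosomal subunit, by 0.83. Rn45s, the ribosomal RNA precursor and the most counted entry of both sets of libraries, was 12744 to 117890 CPM in the low and 9158 to 87646 CPM in the high libraries and was not called (-0.56, adjusted p = 0.26).

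**Figure D4:**
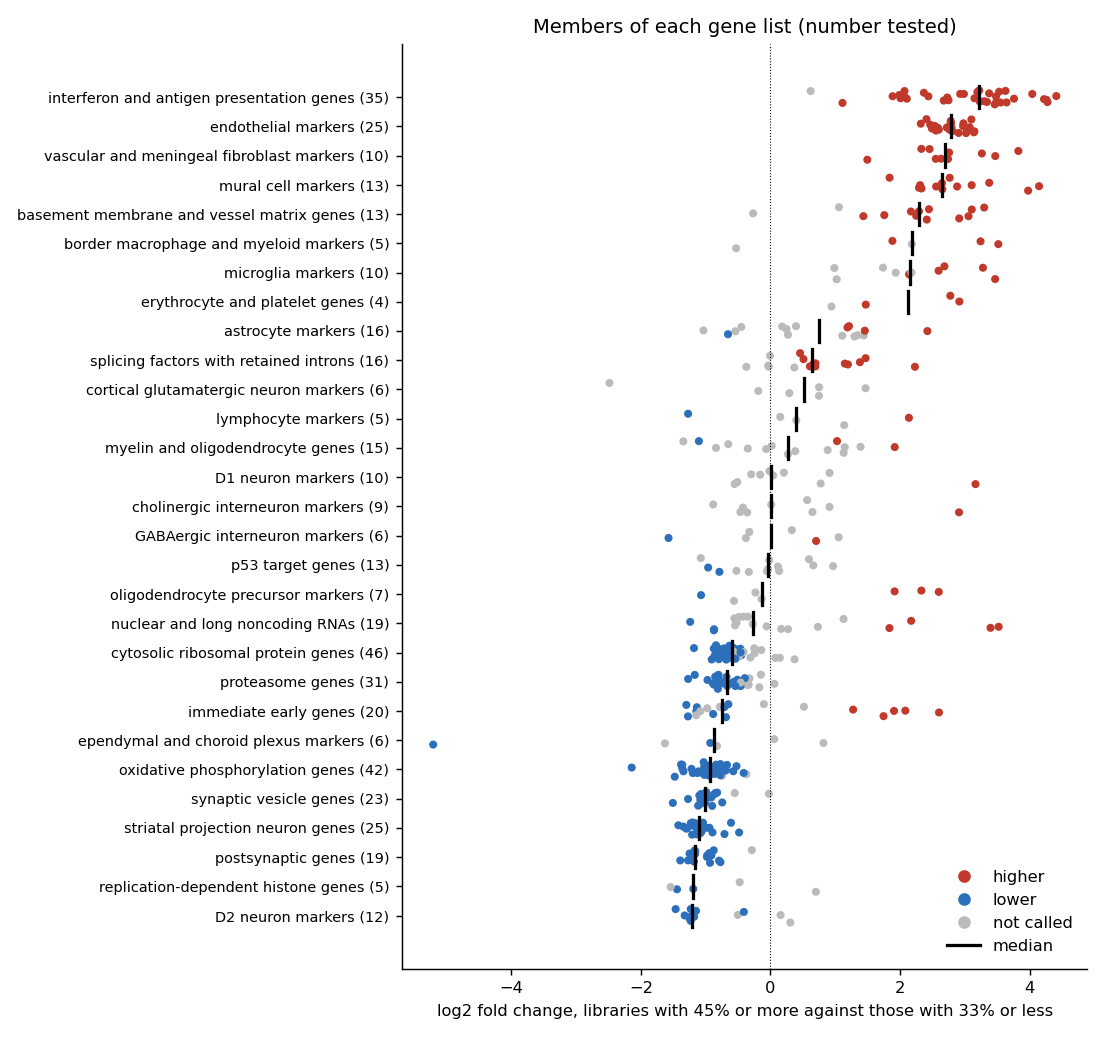
Each point is the log2 fold change of a list member, high against low libraries, coloured by its call, with the list's median as a line and the number of members tested in parentheses. The medians of the vascular and interferon lists lie from 2.29 to 3.22, those of D2, projection neuron and synaptic lists from -1.20 to -1.01, and glial and interneuron members spread to both sides of 0.

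Of 16 astrocyte markers 4 were called higher and 1 lower (6 and 0 with total gene counts), near the 25.5% of all genes called higher. Their sums of 374 to 558 CPM in the high and 183 to 458 CPM in the low libraries were far under the 2347 to 3585 CPM of the inputs. S1pr1 rose by 2.42, and it is also the sphingosine phosphate receptor of endothelial cells; Slc1a3, the glutamate transporter GLAST, rose by 1.21, and Clu, a secreted chaperone, fell by 0.66 (not called with DESeq2, total gene counts or the other size factors). Of 15 myelin genes 2 were called higher, Mal (1.92) and Trf (1.03), and 1 lower, Mbp (-1.11), while total gene counts gave 6 higher and 1 lower and DESeq2 5 and 1. Their sums were 182 to 429 CPM in the high, 164 to 496 CPM in the low libraries and 1990 to 2687 CPM in the inputs. Of 7 oligodendrocyte precursor markers Cspg4 (2.60), Pdgfra (2.33) and Gpr17 (1.92) were higher and Vcan (-1.07) was lower, not called with total gene counts; Cspg4 encodes NG2, which pericytes express as well, and Pdgfra also marks fibroblasts.

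Of 20 immediate early genes 5 were called higher and 8 lower (6 and 3 with total gene counts), beside 25.5% and 24.1% of all genes, so the higher calls were at the share over all genes. Egr1 and Egr3, activity-dependent transcription factors of neurons, fell by 1.299 and 1.14, with medians for Egr1 of 1216 CPM in the low and 504 CPM in the high libraries. Klf4, a transcription factor that endothelial cells also express, rose by 2.60 from at most 21.2 CPM to between 18.8 and 59.2 CPM, and Btg2, an antiproliferative gene, rose by 1.74. The other 3 called higher were Jun (1.27), Nr4a2 (1.91) and Ier2 (2.08), named after their values were seen. Of 13 p53 targets Plk2 (-0.79) and Zmat3 (-0.96) were lower and none higher (1 higher with relative log expression factors and with total gene counts, 2 with DESeq2). Of 5 histone genes Hist1h4d (-1.44) and Hist1h1c (-1.19) were lower, and of 6 ependymal and choroid plexus markers Ccdc153 (-5.21) and Clic6 (-0.93); Ccdc153 was at most 6.15 CPM in any low library. The edgeR calls of Ier2, Hist1h1c and Clic6 were each lost when single libraries were left out, with the highest adjusted p at 0.141 for Ier2 and 0.0686 for Clic6, both without nonescalating withdrawal library 1 of set A, and 0.0746 for Hist1h1c without saline library 3.

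The 15 largest rises by that rule also included vascular and muscle genes. Figf, a vascular endothelial growth factor also named Vegfd, ran from 0 to 2.37 CPM in the low and from 9.39 to 49.3 CPM in the high libraries and had no count in the inputs (log2 fold change 4.51). Cav2, a caveolin, rose by 4.26. Myom1 and Unc45b, a myomesin and a myosin chaperone of muscle, rose by 4.39 and 4.36, and the highest low library, the saline withdrawal library 2 of set B, held 10.5 and 9.04 CPM of them. Sptbn1, a spectrin and among the 5 most counted genes of the high libraries, ran from 792 to 2294 CPM in the low and from 2587 to 6264 CPM in the high libraries. Spock2, a matrix proteoglycan of the same 5, rose by 0.82.

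The sizes of the 2 largest of these 15 rises depend on the gene annotation of the tables. The tables come in 2 annotations, 10 with 32531 and 16 with 32657 genes. Zfp36 (6.26) had no count in any table of the larger annotation. Its value was 2.40 (edgeR adjusted p = 0.0080), still called, with the annotation as a term in place of library set. Among purified libraries of the smaller annotation it ran from 3.40 to 5.34 CPM in the low and from 15.4 to 41.5 CPM in the high ones. Adnp (4.95) was at most 0.627 CPM in tables of the larger annotation and at least 97.7 CPM in those of the smaller one, and its value became -0.14 (adjusted p = 0.77) with that term. With it 7593 genes (48.3%) were called in all.

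Among the largest falls, a few libraries decided the size. Nat8l, the N-acetylaspartate synthase, had a fold change of -3.11, with 6148 CPM in the escalating low library and 2852 CPM in nonescalating library 2 against a low-library median of 290 CPM, and a value of -2.33 without the escalating library. Uqcrc1, of complex III (-2.14), had 2402 CPM in 1 low library, set B nonescalating withdrawal 2, and a value of -0.91 without it. Rundc1 (-1.96) had 2880 CPM in nonescalating library 2 and was at -0.71 without it, and Lipt2 (-2.07) lost its call without nonescalating withdrawal library 2 of set A, at -1.02 (adjusted p = 0.12). Gstm6 (-2.14), a glutathione transferase, was below every low library in all 8 high libraries, at 0.853 to 6.13 CPM against 6.96 to 24.3 CPM.

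Measures of whole libraries that the share does not define also differed. The number of genes with at least 1 CPM averaged 14608 ± 572 (SD, n = 8) in the high and 12613 ± 679 (SD, n = 10) in the low libraries (adjusted p = 0.00034, exact two-sided permutation test over 43758 splits, Benjamini-Hochberg over 11 measures). Long noncoding RNA genes took 4.08% ± 1.88 of counts in the high and 1.21% ± 0.23 in the low libraries (adjusted p = 0.00013, exact permutation test). Malat1 alone took 3.42% ± 1.78 and 0.738% ± 0.182, and the other long noncoding genes 0.662% ± 0.117 and 0.471% ± 0.0751, so most of the difference lay in Malat1. Pseudogenes took 0.0912% ± 0.033 and 0.0375% ± 0.0047. Olfactory, vomeronasal and taste receptor genes, best known from sensory neurons, summed to 65.3 ± 37.3 and 26.1 ± 8.15 CPM (adjusted p = 0.00057, exact permutation test). Single-exon coding genes took 0.863% ± 0.157 and 0.996% ± 0.060 (adjusted p = 0.045, exact permutation test), a call lost in 13 of 18 tests that left out 1 library. Gene counts in all, ambiguous and multiply aligned reads, the share of the 50 most counted genes, Rn45s and small RNA genes had adjusted p of 0.29 or more by the same exact test. Gene by gene, 28 of 53 small RNA genes (52.8%) were called higher and none lower, beside 25.5% of all genes called higher. These 28 averaged at most 10.5 CPM in the high and at most 1.23 CPM in the low libraries. Genes so near the floor in the low libraries can pass the count filter through the high ones, so this count may lean upward. The small RNA share was mostly Mir6236, not called, at means of 645 CPM in the high and 1042 CPM in the low libraries.

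The reads outside genes were denser than the counts over receptor exons. In each purified library, counts per kilobase over the exons of 1477 chemoreceptor genes were between 1.51% and 6.68% (median 2.67%) of the reads outside genes per kilobase of the annotated genome extent of 2.66 Gb. In the library with the largest share the values were 0.394 and 13.8 per kilobase. Reads that align equally well to similar receptors are not counted, which lowers the first value by an amount that was not measured here. Where in the genome the reads outside genes lie was not analysed here.

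Most genes called in set A had the same sign in set B, with values closer to 0. With set A alone 6975 of 16081 genes (43.4%) were called. With set B alone, 3 libraries against 3, edgeR called 1 gene, AK156288, of 13894 (0.0072%), while 2994 (21.5%) had an unadjusted p under 0.05. Of the genes called higher in set A and tested in both, 97.2% were also above 0 in set B, as were 51.9% of all genes, and of those called lower 88.7% were below 0. The medians of these genes were 2.61 in set A and 1.65 in set B for the higher ones, and -1.07 and -0.40 for the lower ones. Endothelial markers had medians of 2.995 (set A) and 2.19 (set B), interferon genes of 3.54 and 2.09, and D2 markers of -1.40 and -0.54. The difference between the sets was itself not called for any gene (0 of 15884 by edgeR, 12 by DESeq2), with 1372 genes (8.64%) at an unadjusted p under 0.05. Within the nonescalating withdrawal libraries alone 3848 of 16115 genes (23.9%) were called, and endothelial and interferon medians were 3.50 and 3.21.

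**Figure D5:**
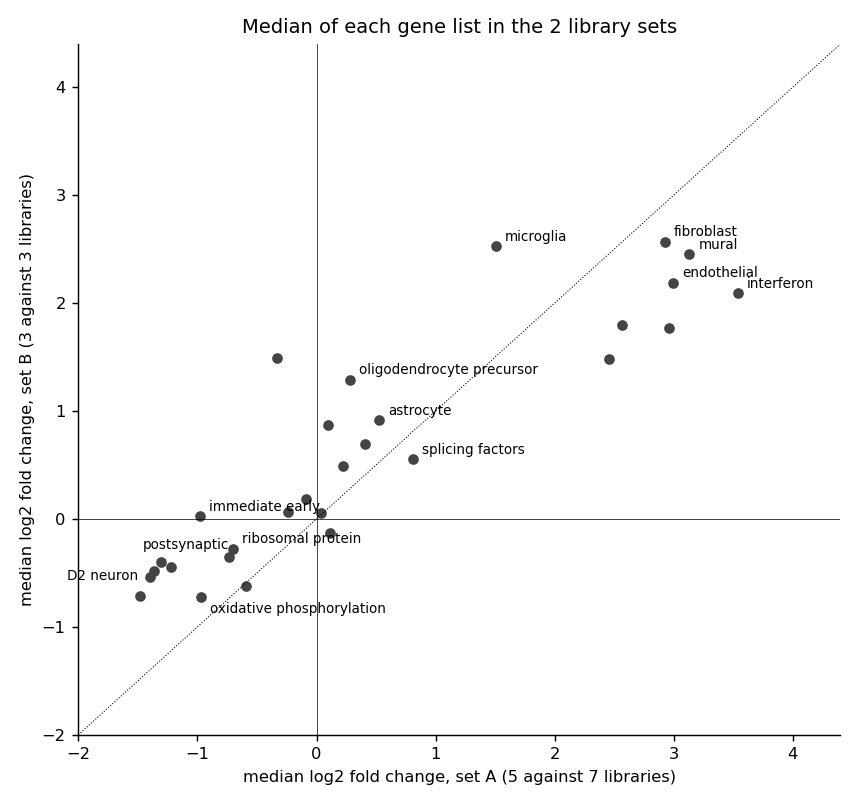
Each point is a gene list, at its median log2 fold change in set A (horizontal) and set B (vertical), with a dotted line of equality. The endothelial, mural, fibroblast and interferon lists lie above 2 on both axes, and the D2 and postsynaptic lists are closer to 0 in set B than in set A.

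Without the 2 libraries over 60%, both of set A after withdrawal, 5122 of 15304 genes (33.5%) were called, and the median was 2.65 for the endothelial, 2.87 for the interferon and -0.87 for the D2 markers. Malat1 was then at 1.67, Flt1 at 2.61 and Drd2 at -1.02, each still called.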

How the data were processed

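Reads were aligned with STAR 2.0.0e and counted with HTSeq on mm10, per the submitters' processing notes, and the authors deposited 1 table of whole-number counts per gene for each library. The gene annotation used and whether counting was by strand or by exon are not stated. The tables use 2 annotations, of 32531 and 32657 genes, joined on 31735 shared symbols and 244 pairs of old and new symbols (31979 genes, at least 99.5% of gene counts). Mitochondrially encoded genes were in none of the tables and the entry for unaligned reads was 0 in all, so both planned measures were not made. The closing entries that name no gene stayed out of library sizes and tests; the entry for reads in no gene gave the share of 21.2% to 70.7%.

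The main fit was edgeR 4.0.16 (R 4.3.3; quasi-likelihood F test, trimmed mean of M-values scaling, filterByExpr) on 23 purified libraries with 3 share classes and library set, high minus low, with Benjamini-Hochberg adjustment over all genes and calls at an adjusted p under 0.05. On data simulated for this comparison over 15719 genes, 26% of 100 genes changed 2-fold and 67% of 100 changed 4-fold were called, with 3 false calls. The simulation changed only those genes, in both directions, and held no effect of library set. In the data 49.6% of genes were called, so the simulated false calls do not measure the error there. Library measures were compared by exact permutation. Alternatives were DESeq2 1.42.0, other scalings, filters, terms, thresholds and subsets, and leaving out each library.

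Members and lists were chosen with earlier results of these data known, so list counts are descriptions. Named genes are the 15 largest rises and falls of 5 or more CPM on average and no clone-like symbol, the 5 most counted genes of both classes, up to 4 members of each of 30 lists by lowest p, and 11 fixed genes; a part of these is printed. Promoters are RefSeq's of GRCm38.p6, and coordinates and gene classes are GENCODE M21's. Among 56 pairs of libraries within a group none was identical, and chi-square per degree of freedom was 11.8 to 265. No library was therefore taken as a copy of another in the series. Every set A title but that of saline withdrawal library 2 calls the library a copy of an earlier number. The libraries of those earlier numbers are not in the series, so the check cannot show what copy means. Shares of counts carry counting error beside the spread given.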

Additional observations from a re-analysis of the deposited data

Results flagged for a closer look

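Each value printed for single genes and library measures was examined within the high and within the low libraries for a sample far from the others, by Dixon's criterion on the gap to the nearest library. Chance gives about 1 in 20 such samples among groups of independent, normally distributed values, and 41 were found among 224 groups. The CPM of related genes in the same libraries need be neither, so the 41 cannot be read as an excess over that rate.

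The saline withdrawal library 1 of set A, with the largest share of reads outside genes, was the highest of the 8 high libraries by such a gap for 9 genes of vessels and the interferon response and for 2 other values. Its levels were 454 CPM for Erg (next 172), 49.3 for Figf (next 27.4), 312 for Igtp (next 107), 250 for Nlrc5 (next 67.8), 103 for Oas2 (next 34.5), 53.6 for Rsad2 (next 20.8), 193 for Parp14 (next 102), 106 for Ddx58 (next 58.8) and 282 for Gbp3 (next 112). It also held the most Airn, at 56.2 CPM, and the most chemoreceptor counts, at 145 CPM (next 84.0).

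The saline withdrawal library 3 of set B stood apart among the high libraries with 63.1 CPM of Drd1 (next 37.0), a low of 7.96 CPM of Btg2 (next 18.6) and the fewest genes with at least 1 CPM, 13427 (next 14461). Saline library 1 had 17.95 CPM of Chat (next 8.39). Ier2 was 5.99 CPM in nonescalating withdrawal library 1 of set A (next 2.49), and Ccdc153 was 0.25 CPM in saline withdrawal library 2 of set A and 0 in the other high libraries. Plk2 was lowest in saline withdrawal library 1 of set A, at 134 CPM (next 241).

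Among the low libraries, the saline withdrawal library 2 of set B was highest for 6 genes of vessels and muscle or the cytoskeleton, with 2294 CPM of Sptbn1 (next 1414), 117 of Abcb1a (next 39.0), 65.6 of Abcc9 (next 34.9), 9.46 of Cav2 (next 3.05), 10.5 of Myom1 (next 1.37) and 9.04 of Unc45b (next 0.992).

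The nonescalating withdrawal library 2 of set A was highest for oligodendrocyte precursor and other genes, with 40.4 CPM of Gpr17 (next 8.62), 11.5 of Pdgfra (next 3.29), 49.0 of Vcan (next 26.2), 43.8 of Sox18 (next 25.5), 10.9 of Slc6a13 (next 4.32), 7.33 of Ptprc (next 3.85), 54.7 of Lipt2 (next 13.9) and 680 of Plk2 (next 487). The nonescalating withdrawal library 2 of set B had 1867 CPM of Meg3 (next 1101), 5.91 of Airn (next 2.88) and 2402 of Uqcrc1 (next 219). Single values apart were 2.73 CPM of Col1a1 in nonescalating withdrawal library 3 of set A (next 1.41), 6148 of Nat8l and 871 of Peg13 in escalating library 1 (next 2852 and 463), 2.18 of Ier2 in nonescalating library 1 (next 1.12), and 2880 of Rundc1 and 23.7 of Pvt1 in nonescalating library 2 (next 224 and 8.15).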

How the results depend on the processing

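The number of genes called stayed within 1.5 times of 7803 except with set B only or the tables of the smaller annotation only (1 gene each, higher, and 0 lower), the nonescalating withdrawal libraries only (3848, of which 2212 higher and 1636 lower) and without the 2 libraries over 60% (5122, 1907 lower). The lower calls alone moved to 1852 with total gene counts, 2004 with a split at the median share and 2008 with the tables of the larger annotation only. Leaving out each of the 23 libraries gave 6742 to 8136 called, 3421 to 4173 higher and 3321 to 4014 lower. The interaction of class and set was called for 0 genes by edgeR and 12 by DESeq2. With the replicate number as a replicate block 7560 genes were called. No shared deviation of same-numbered libraries was seen (46 pairs, median r 0.01, -0.45 to 0.28, against -0.04 in 151 others). These correlations cannot exclude a small effect shared by libraries of the same number. Alternatives on annotation, on Malat1 and Rn45s and on the libraries over 60% were added after seeing the data.

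Among the genes printed, the sign of a called value turned for Adnp, at -0.0656 with saline withdrawal library 2 of set A as a set of its own, -0.294 with set B only, -0.14 with nonescalating withdrawal libraries only, -0.305 with the smaller annotation only, -0.135 with the annotation term and -0.0594 without saline withdrawal library 2 of set A (other single libraries left out gave up to 5.69), and for Rundc1, at 0.0141 with set B only and 0.0033 with the smaller annotation only. Set B only ended the call of 92 of these genes and the smaller annotation only that of 93; each other alternative except leaving out single libraries ended 1 to 20. The cause was not tested for Rundc1; Adnp follows the annotation of the tables.

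For the library measures with a call, set B only gave differences of 1058 genes with at least 1 CPM, 11.99 CPM of chemoreceptor genes, 2.45 points of long noncoding RNA, 0.0313 of pseudogenes and -0.0186 of single-exon coding genes, none of which can be called, since 3 against 3 cannot go below p = 0.1 in an exact permutation test. At thresholds of 50% and 30% the single-exon difference was -0.147 and not called. Without single libraries the differences were 1888 to 2164 genes, 27.8 to 43.8 CPM, 2.39 to 3.16 points, 0.0435 to 0.0584 points and -0.158 to -0.097 points. The cause of the fewer calls in set B was not tested.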
